A study of Mus musculus with 6 samples.

Results

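Histone genes were selected by symbol from a table of array expression values, and 31 of the 9490 genes tested had a histone symbol. They comprised 21 core genes of the replication-coupled kind (3 for H2A, 10 for H2B, 1 for H3 and 7 for H4), 5 linker H1 genes and 5 variant genes. The RefSeq gene table lists 30 of the 31 as protein-coding and H2bu1-ps as a transcribed pseudogene. The RNA was that of prostate cancer stem-like cells grown in culture from the TRAMP mouse, whose transgene expresses simian virus T antigens in prostate epithelium under the probasin promoter. All 6 samples share this transgene and serum-free culture with EGF and FGF2. TPIN cells (n = 3 samples) were from prostates with intraepithelial neoplasia at an age of 10 to 11 weeks, and TNE cells (n = 3 samples) from mice with neuroendocrine tumours, whose age is not given in the labels. The free-text label names intraepithelial neoplasia for all 6 samples, so the groups rest on the titles and the cell type label. The title of each sample carries a number code of its own, but no label says what it stands for or that replicates are separate animals or cultures, so the spread behind the p-values may be technical.

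Eukaryotic DNA is wound around an octamer of the core histones H2A, H2B, H3 and H4, and linker H1 binds where the DNA enters and leaves that particle. Replication-coupled histone genes lie in clusters, are transcribed in S phase and give mRNAs that end in a stem-loop bound by SLBP rather than in a poly(A) tail. Variants such as H2A.Z and H3.3 are encoded by separate genes, give polyadenylated mRNAs and are made through the cell cycle, whereas the H2A.X gene is known to give both kinds of mRNA. The labelling kit named in the protocols was a whole-transcript one. Many cluster genes are near-identical copies, so the signal of a core gene cannot be assigned with certainty to that gene alone.

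Of the 31 histone genes, 13 rose in TNE, 1 fell and 17 did not pass an adjusted p of 0.05 in limma, a linear model with moderated spread fitted on all 9490 genes. The background was 10.3% of all genes higher and 10.2% lower in TNE, against 41.9% of histone genes higher. The median log2 difference, TNE minus TPIN, was 1.05 for the histone genes and -0.02 for all genes tested. All 3 TNE arrays lay above all 3 TPIN arrays for 18 histone genes (58.1%, background 23.3%) and below them for 1 (background 20.5%), against 43.8% of all genes without overlap in either direction. In the class counts, 8 of 21 core genes rose and none fell, 2 of 5 linker genes rose and 1 fell, and 3 of 5 variants rose and none fell. The median log2 difference was 1.05 in the core class, 0.33 in the linker class and 1.38 in the variant class. The variant median includes H2aw (1.70), whose older symbol is that of a cluster gene, and was not recomputed without it. The other variants were at 1.85, 1.38, 0.84 and 0.82, so the order of the core and variant medians leans on this assignment. The count of 14 calls fell to 4 without TPIN replicate 1 or without TNE replicate 2, to 7 without TNE replicate 3 and to 8 without TPIN replicate 3. Over all genes the calls fell from 1941 to 936, 832 and 1326 in the first 3 of these cases and rose to 2596 in the last.

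**Figure D1:**
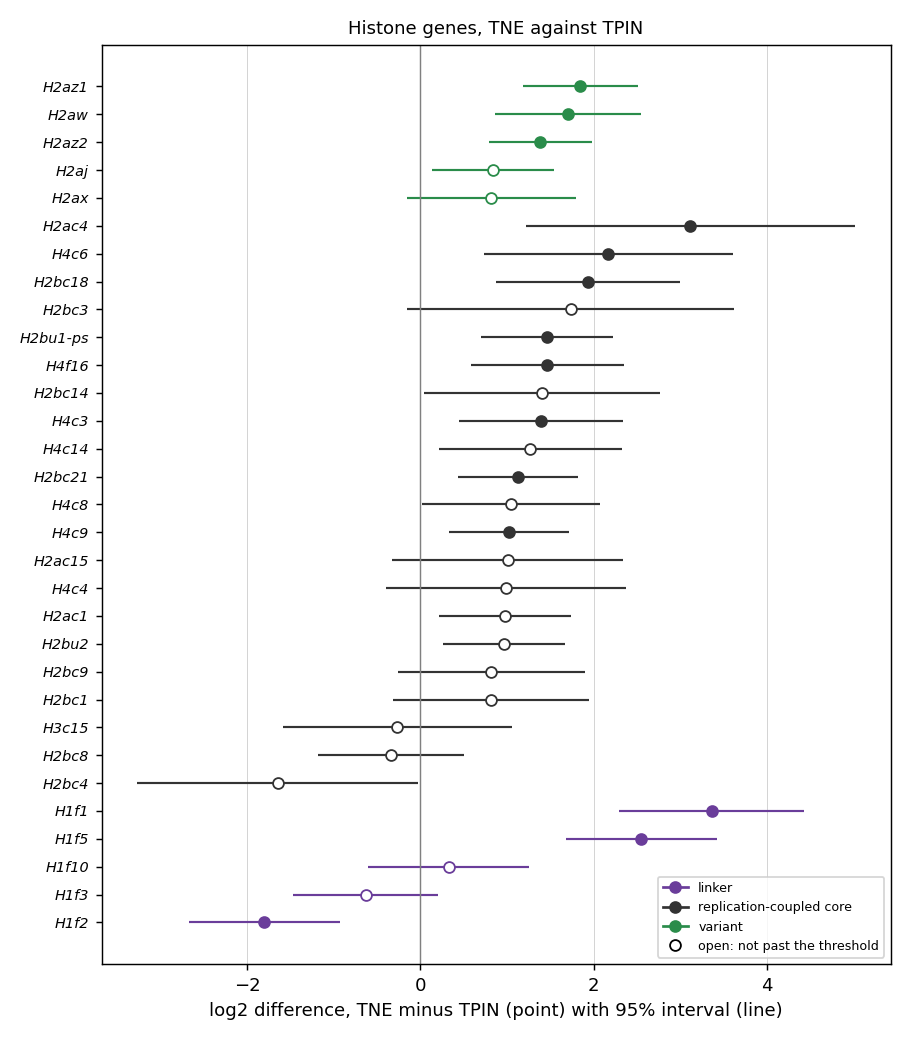
Log2 difference (TNE minus TPIN, horizontal axis) of the 31 histone genes with 95% intervals from the limma fit, coloured by class, and filled where the adjusted p was under 0.05. Of the genes, 26 lie right of 0, against 4668 of all 9490 genes tested. In the linker class H1f1 (3.36) and H1f2 (-1.80) stand at opposite ends.

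The 3 TPIN and 3 TNE arrays also differed in other gene lists. Counts in these lists stand beside a background of 10.3% of all genes higher and 10.2% lower in TNE. Fibroblast and smooth muscle markers were measured for 15 of 17 genes, 11 of which fell in TNE and none rose, and the mean of the list was 11.2 to 11.5 in TPIN and 7.65 to 8.49 in TNE. Neuroendocrine markers rose for 4 of 6 measured genes of 13 listed, with list means of 7.99 to 8.54 in TPIN and 9.30 to 10.9 in TNE. Of the 4, Uchl1 passed with any 1 array left out, while Syt1, Elavl4 and Snap25 each lost their call without any 1 of 3 arrays. Eno2 went the other way, at 9.77 to 10.30 in TPIN and 8.74 to 9.53 in TNE, and did not pass (limma adjusted p = 0.110). Of 2 leukocyte and 1 basal marker measured none passed, and of 4 endothelial markers 1 rose and 1 fell. The leukocyte and basal markers were not even within the groups. The mean of the leukocyte list, in replicate order, was 7.47, 6.82 and 6.91 in TPIN and 7.28, 6.76 and 9.38 in TNE. The basal marker Itga6 had 8.01, 7.46 and 10.6 in TPIN and 11.5, 11.8 and 10.1 in TNE, in the same order. Of 8 luminal markers 3 were measured, Krt8 and Krt18 (log2 levels of 7.92 and 8.27 in TPIN, 7.59 and 7.60 in TNE, neither past the threshold) and Cd24a, which rose. The part of these lists in the histone results was not tested, and in bulk samples fewer cells of a type and less RNA per cell cannot be told apart. Array medians were 8.82 to 9.10, and the correlation between arrays was 0.825 to 0.917 within the groups and 0.549 to 0.733 between them.

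The linker genes split by subtype. H1f1 and H1f5, which encode the H1.1 and H1.5 proteins, rose in TNE, while H1f2, which encodes H1.2, fell. All 3 belong to the large histone cluster (older symbols Hist1h1a, Hist1h1b and Hist1h1c), and H1f2 is known to be made also as a polyadenylated transcript in cells that no longer divide. Their upstream sequences are shown because these genes of 1 family moved in opposite directions. Each line gives the 250 bases before the gene's start, 5′ to 3′ on the gene's strand, from RefSeq (GRCm38.p6), with motif matches on either strand in capitals. The motifs searched were the TATA box as TATAAA, the CCAAT box as CCAAT, the H1 box as AAACACA, the octamer as ATTTGCAT and an E2F-like site spelled either TTTCGCGC or else TTTGGCGC.
H1f1, chr13:23763418-23763667, + strand: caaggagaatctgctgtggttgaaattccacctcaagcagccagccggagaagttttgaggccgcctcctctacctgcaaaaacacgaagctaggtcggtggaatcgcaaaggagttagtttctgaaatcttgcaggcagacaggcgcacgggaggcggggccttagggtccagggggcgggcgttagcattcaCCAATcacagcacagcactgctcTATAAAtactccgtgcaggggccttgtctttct
H1f5, chr13:21780626-21780875, - strand: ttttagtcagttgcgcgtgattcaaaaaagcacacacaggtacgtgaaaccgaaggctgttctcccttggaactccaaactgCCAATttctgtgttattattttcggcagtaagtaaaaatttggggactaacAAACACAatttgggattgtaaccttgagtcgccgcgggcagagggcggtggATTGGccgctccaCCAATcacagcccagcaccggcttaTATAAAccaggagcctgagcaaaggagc
H1f2, chr13:23738557-23738806, + strand: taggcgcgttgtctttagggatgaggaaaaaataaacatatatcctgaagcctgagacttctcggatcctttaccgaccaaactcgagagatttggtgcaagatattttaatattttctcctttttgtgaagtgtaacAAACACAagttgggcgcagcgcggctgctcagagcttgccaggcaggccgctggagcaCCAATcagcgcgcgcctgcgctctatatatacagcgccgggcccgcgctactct
CCAAT began 56 bases before the start in H1f1, 53 in H1f5 and 54 in H1f2, and H1f5 held it further out as well (168 bases before, and 66 on the other strand). TATAAA began 33 bases before the start in H1f1 and 28 in H1f5, and these exact letters were not in the H1f2 window. Of the other linker genes, neither of which passed, H1f3 (log2 difference -0.63) held TATAAA 26 bases before its start. H1f10 (log2 difference 0.33) did not hold it. The H1f2 sequence holds the similar letters tatatata close to its start, a spelling that was not searched. The windows therefore do not show that H1f2 lacks a TATA box. AAACACA began 117 bases before the start in H1f5 and 112 in H1f2. A match is a description of the letters, not of a bound site.

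H1f1 had log2 levels, in the order of the replicates as in all values that follow, of 9.14, 9.98 and 8.50 in TPIN and 11.91, 12.70 and 13.08 in TNE. The groups were far apart, with the lowest TNE array above the highest TPIN array. This was a 10.3-fold rise (log2 difference 3.36, SE 0.46, limma adjusted p = 0.00370), the largest difference among the 31 histone genes. H1f5 stood at 9.72, 10.85 and 10.33 in TPIN and at 12.39, 13.03 and 13.12 in TNE. It rose 5.86-fold (log2 difference 2.55, SE 0.37, limma adjusted p = 0.00463), again without overlap, and both calls held with any 1 array left out.

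H1f2 had 11.79, 11.15 and 10.61 in TPIN and 9.20, 9.82 and 9.14 in TNE, so that every TNE array lay below every TPIN array. It was 3.48-fold lower in TNE (log2 difference -1.80, SE 0.38, limma adjusted p = 0.0158). The call was lost without TPIN replicate 1, the highest TPIN array (limma adjusted p = 0.0529). The log2 ratio of the H1f1 to the H1f2 signal within an array was -2.66, -1.17 and -2.11 in TPIN and 2.71, 2.88 and 3.94 in TNE. That ratio shifted by 5.16 on the log2 scale, and the ratio of H1f5 to H1f2 by 4.35. These pairs were chosen after their values were seen, so the shifts are a description, with no test.

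Neither of the other linker genes passed. H1f3, which encodes H1.3, had 8.49, 7.91 and 7.36 in TPIN and 6.96, 7.64 and 7.28 in TNE (log2 difference -0.63, limma adjusted p = 0.230). H1f10, a linker gene outside the clusters that is not tied to replication, had 9.54, 9.59 and 8.45 in TPIN and 9.03, 9.63 and 9.90 in TNE (log2 difference 0.33, limma adjusted p = 0.566). Both genes overlapped between the groups. The mean of the linker class, whose members moved in both directions, was 9.56 ± 0.45 in TPIN and 10.32 ± 0.37 in TNE (SD, n = 3).

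Among the variants, both H2A.Z genes rose. H2A.Z marks nucleosomes beside transcription start sites and differs from canonical H2A in sequence, and H2az1 and H2az2 encode nearly the same protein. The upstream sequence of H2az1 is shown, drawn as above, as the variant with the smallest p.
H2az1, chr3:137864237-137864486, + strand: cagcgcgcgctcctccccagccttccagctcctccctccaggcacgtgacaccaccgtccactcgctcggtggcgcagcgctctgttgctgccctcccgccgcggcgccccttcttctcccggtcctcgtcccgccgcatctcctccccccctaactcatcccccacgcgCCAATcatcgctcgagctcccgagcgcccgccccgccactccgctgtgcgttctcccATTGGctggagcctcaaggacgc
Its letters hold CCAAT 80 bases before the start and, on the other strand, 23 bases before it. None of the 4 variant genes with a window (H2az1, H2az2, H2aj and H2aw) held TATAAA in this exact spelling, the only one searched.

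H2az1 had 9.79, 10.30 and 9.96 in TPIN and 11.56, 11.91 and 12.12 in TNE. The groups did not overlap, and the rise was 3.59-fold (log2 difference 1.85, SE 0.29, limma adjusted p = 0.00556), a call that held with any 1 array left out. H2az2 had 9.99, 10.10 and 10.03 in TPIN and 11.18, 11.54 and 11.56 in TNE. The TPIN arrays had an SD of 0.05, and the rise was 2.61-fold (log2 difference 1.38, SE 0.26, limma adjusted p = 0.0103). It narrowly lost its call without TNE replicate 2 (limma adjusted p = 0.0541).

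H2aw rose 3.25-fold, from 9.89, 10.17 and 9.53 in TPIN to 10.91, 12.01 and 11.78 in TNE (log2 difference 1.70, SE 0.36, limma adjusted p = 0.0170). It lost its call without TPIN replicate 1 or TNE replicate 2. The class rule put it with the variants, although its older symbol, Hist3h2a, is that of a cluster gene. Counted with the core genes, it makes 9 of 22 core genes and 2 of 4 variants past the threshold. H2ax encodes H2A.X, which is phosphorylated around DNA breaks. Its levels were 9.41, 9.67 and 8.59 in TPIN and 9.41, 10.63 and 10.09 in TNE, overlapping between the groups (log2 difference 0.82, limma adjusted p = 0.188). H2aj, which encodes H2A.J, had levels of 7.84 to 8.34 in TPIN and 8.57 to 9.31 in TNE. Its groups did not overlap, but the difference of 0.84 did not pass (limma adjusted p = 0.0832).

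**Figure D2:**
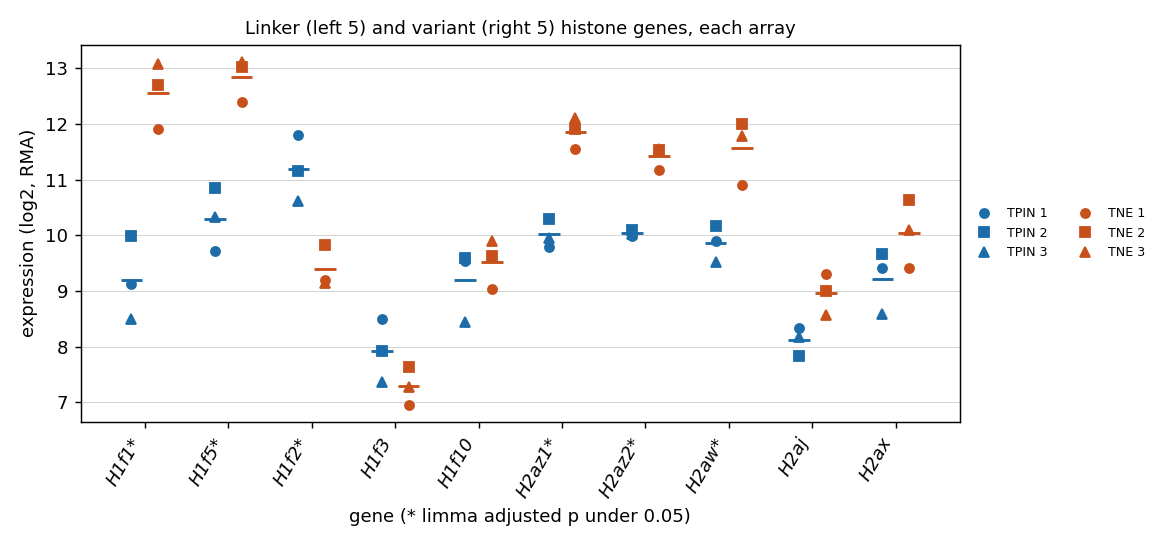
Log2 RMA level (vertical axis) of the 5 linker and 5 variant genes on each of the 6 arrays, with bars at the group means and an asterisk where the limma adjusted p was under 0.05. H1f2 is the gene here whose TNE arrays (9.14 to 9.82) all lie under its TPIN arrays (10.61 to 11.79).

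The histone H3.3 genes had no row of their own. H3f3a and H3f3b each shared a row with a pseudogene of the same family, and these rows were taken from a fit on all 10361 rows. The H3f3a row had 10.89, 11.04 and 11.54 in TPIN and 11.99, 12.08 and 12.27 in TNE, without overlap and just short of the threshold (log2 difference 0.95, limma adjusted p = 0.0527). The H3f3b row had 11.36, 11.74 and 12.63 in TPIN and 12.96, 13.18 and 13.06 in TNE (log2 difference 1.16, limma adjusted p = 0.0600).

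Core genes had positive differences in 18 of 21 cases (4668 of all 9490 genes did), and 8 rose in TNE past the threshold. The 8 were H2ac4 for H2A, H2bc18, H2bc21 and the pseudogene H2bu1-ps for H2B, and H4c3, H4c6, H4c9 and H4f16 for H4. Their log2 differences ran from 1.02 to 3.12 and their limma adjusted p from 0.0201 to 0.0483. Calls in this class were fragile. Without TPIN replicate 1 or without TNE replicate 2, limma called 0 of the 21, while 11 were higher at an unadjusted p under 0.05 in both cases, a share of genes that was 14.4% over all genes without TPIN replicate 1 and 13.7% without TNE replicate 2. It called 1 without TNE replicate 3, and 1 higher and 1 lower without TPIN replicate 3. Taken in the order named, these fits passed 9.86%, 8.77%, 14.0% and 27.4% of the 9490 genes at the adjusted threshold. With every array kept, 20.5% passed. The low core count in the last fit thus stood beside a larger share of calls among all genes. The number with a positive difference stayed at 18 or 19 in these 4 cases. H2bc18 is shown as the protein-coding core gene with the smallest p, with the octamer ATTTGCAT that is known from H2B promoters.
H2bc18, chr3:96269450-96269699, + strand: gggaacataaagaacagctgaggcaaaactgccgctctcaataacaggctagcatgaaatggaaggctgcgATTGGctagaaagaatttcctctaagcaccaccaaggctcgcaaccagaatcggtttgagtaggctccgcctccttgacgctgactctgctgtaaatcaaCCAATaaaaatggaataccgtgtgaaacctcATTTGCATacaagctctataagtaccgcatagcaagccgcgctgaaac
The octamer began 48 bases before the start, and CCAAT began 79 bases before it and, on the other strand, 179 bases before it.

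H2bc18 had 7.96, 8.57 and 7.76 in TPIN and 9.16, 10.09 and 10.84 in TNE. It rose 3.82-fold without overlap (log2 difference 1.94, SE 0.46, limma adjusted p = 0.0244). H2bc21, which is also made as a polyadenylated mRNA, had 7.17, 6.70 and 6.52 in TPIN and 7.63, 7.93 and 8.19 in TNE. Its rise was 2.18-fold (limma adjusted p = 0.0365), and the call was lost without any 1 of 5 arrays. H2bc21 and H4c9 were among the 8 histone genes not tested when genes of low mean level were left out. H2bu1-ps had 7.60, 7.88 and 7.48 in TPIN and 8.60, 9.17 and 9.59 in TNE, a 2.76-fold rise (limma adjusted p = 0.0201). Beside it in the same small cluster lie H2aw, which rose, and H2bu2, which had 6.82, 7.06 and 6.67 in TPIN and 7.40, 7.82 and 8.21 in TNE (log2 difference 0.96, limma adjusted p = 0.0594). All 3 genes of that cluster had TNE arrays above TPIN arrays, as did 23.3% of all genes tested.

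H2ac4 had the largest difference of the core class and a wide spread, at 6.89, 9.10 and 6.32 in TPIN and 9.30, 10.68 and 11.67 in TNE. TPIN replicate 2 came close to TNE replicate 1 without overlap, and the rise was 8.66-fold (log2 difference 3.12, SE 0.82, limma adjusted p = 0.0346). Neither H2ac15 nor the testis-type gene H2ac1 passed, at differences of 1.01 and 0.98 on the log2 scale (limma adjusted p = 0.229 and 0.0687). H2bc1, which encodes the testis H2B and faces H2ac1 across a shared promoter, had a difference of 0.82 (limma adjusted p = 0.246).

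All 7 H4 genes had positive differences (4668 of all 9490 genes did). All but H4c4 had TNE arrays above TPIN arrays (background 23.3%). The H4 genes encode 1 protein from separate loci. H4c6 had 9.27, 10.72 and 8.35 in TPIN and 11.10, 11.35 and 12.40 in TNE, a 4.50-fold rise (limma adjusted p = 0.0445). H4f16, which lies outside the main clusters, had 9.19, 9.40 and 8.83 in TPIN and 10.16, 10.30 and 11.35 in TNE, a 2.76-fold rise (limma adjusted p = 0.0335). H4c3 had 7.99, 8.82 and 7.59 in TPIN and 9.02, 9.54 and 10.01 in TNE, a 2.62-fold rise (limma adjusted p = 0.0483). All 7 H4 genes had their highest TPIN level in replicate 2 and their lowest in replicate 3. H4c9 had 7.59, 7.80 and 7.17 in TPIN and 8.23, 8.80 and 8.59 in TNE, a 2.03-fold rise (limma adjusted p = 0.0480) that lost its call without any 1 array.

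H4c14 and H4c4, the core genes of highest mean, did not pass. H4c14 had 10.90, 11.48 and 9.85 in TPIN and 11.73, 11.77 and 12.53 in TNE (log2 difference 1.27, limma adjusted p = 0.0818). H4c4 had 12.41, 12.93 and 10.56 in TPIN and 12.51, 12.97 and 13.38 in TNE, so that TPIN replicate 2 lay above TNE replicate 1 (log2 difference 0.99, limma adjusted p = 0.250). H4c8 was at 1.05 (limma adjusted p = 0.124). The remaining H2B genes with positive differences, H2bc3, H2bc14 and H2bc9, were at 1.74, 1.40 and 0.82 (limma adjusted p = 0.155, 0.120 and 0.227), and their groups overlapped. H2bc3 passed without TPIN replicate 2, in which it was at 10.82 against 8.40 and 7.52 in the other TPIN arrays.

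The core genes with negative differences were H2bc4, H2bc8 and H3c15. H2bc4, another gene known to give a polyadenylated transcript, had 12.08, 11.76 and 9.47 in TPIN and 8.72, 10.12 and 9.52 in TNE. TPIN replicate 3 lay among the TNE arrays and the groups overlapped (log2 difference -1.65, SE 0.70, limma adjusted p = 0.123). The gene passed without TPIN replicate 3, with a log2 difference of -2.46. H2bc8 had 7.78, 8.43 and 8.12 in TPIN and 7.41, 8.44 and 7.47 in TNE (log2 difference -0.34, limma adjusted p = 0.511). H3c15 had 6.50, 7.13 and 5.42 in TPIN and 5.57, 7.13 and 5.54 in TNE (log2 difference -0.27, limma adjusted p = 0.747).

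**Figure D3:**
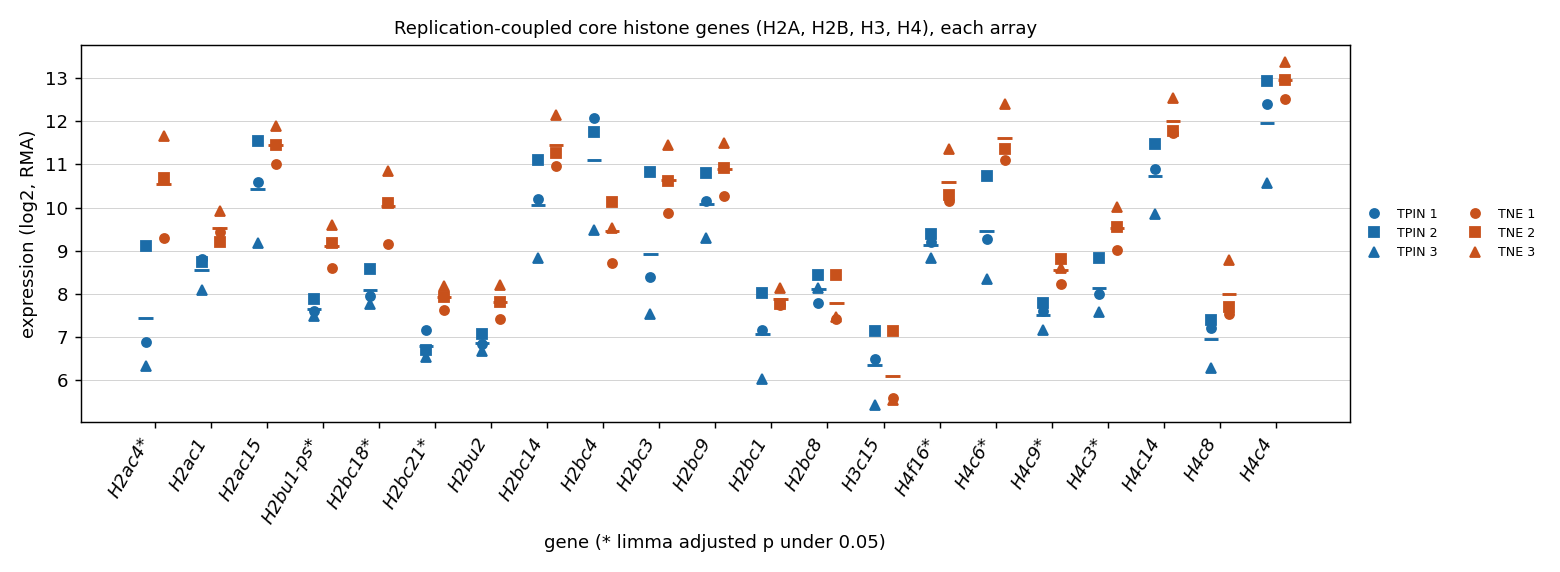
Log2 RMA level (vertical axis) of the 21 replication-coupled core genes on each array, ordered by family, with bars at the group means and an asterisk where the limma adjusted p was under 0.05. TPIN replicate 3 (triangles) is the lowest TPIN array for 20 of the 21 genes, and H2bc4 is the widest departure toward TPIN.

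The single H3 row with 1 symbol gives little account of H3, because most H3 and many H4 rows carry several symbols. There were 14 rows with several symbols of which at least 1 was a histone, each with 2 to 19 symbols. All 14 differences were positive, against 4668 of the 9490 genes with 1 symbol. In the fit on all rows 5 of the 14 rows rose in TNE and none fell (background 9.88% higher). Of 6 rows for the H3 cluster genes, each with 12 symbols, 3 rose. Of the 6, 5 had TNE arrays above TPIN arrays, against 23.3% of the genes with 1 symbol. The largest of these differences was 2.19, in a row at 9.79, 11.30 and 9.19 in TPIN and 11.72, 12.24 and 12.87 in TNE (limma adjusted p = 0.0341). The H3 row with the smallest p had 12.24, 13.01 and 11.77 in TPIN and 13.62, 13.79 and 14.01 in TNE (log2 difference 1.47, limma adjusted p = 0.0295). Of 3 H4 rows, 2 rose, led by one at 10.64, 11.49 and 10.04 in TPIN and 12.45, 12.86 and 13.13 in TNE (log2 difference 2.09, limma adjusted p = 0.0137). Rows for several H2B genes or several H2A genes did not pass, at 1.31 and 1.79 for H2B and 0.98 for H2A. The rows of a family list the same or overlapping genes and are not independent of each other.

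Samples of a group also differed among themselves, and mostly in the same way across core genes. TPIN replicate 2 was the highest TPIN array for 18 of 21 core genes and TPIN replicate 3 the lowest for 20. In TNE, replicate 3 was highest for 17 and replicate 1 lowest for 19. The mean of the core class was 8.70, 9.34 and 7.87 in TPIN and 9.21, 9.76 and 10.15 in TNE, so that TPIN replicate 2 lay above TNE replicate 1. The variant class was tighter, at 9.49, 9.61 and 9.26 in TPIN and 10.47, 11.02 and 10.82 in TNE, and its groups did not overlap.

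Genes of S phase were set beside these means, with 10.3% of all genes higher in TNE as the background for the counts. Of 51 measured genes of DNA replication and S phase (53 listed), 39 rose in TNE and none fell, with list means of 8.23, 9.26 and 8.15 in TPIN and 10.55, 10.77 and 10.56 in TNE. Their median log2 difference was 2.08, against 1.05 in the core histone class. TPIN replicate 2 was the highest TPIN array in both lists. The SD of the array means was 0.62 for S phase and 0.74 for core histones in TPIN, and 0.12 and 0.47 in TNE. Among the S phase genes of smallest p were Cdc7, the kinase that fires replication origins (7.13-fold), Rpa2, a subunit of the single-strand binding complex (5.25-fold), and Gmnn, the licensing inhibitor geminin (4.23-fold), with Prim1 and Cdc6. Of 19 measured genes of G2 and mitosis (20 listed) 13 rose, among them Top2a (8.80-fold), Cenpf (9.17-fold), Birc5, Bub1b and Tpx2, with list means of 7.89, 9.83 and 7.48 in TPIN and 10.46, 10.89 and 10.81 in TNE. Leaving out TPIN replicate 1 or TNE replicate 2 cut the mitosis count to 4, leaving out TNE replicate 3 to 6 and TPIN replicate 3 to 8. The share of all genes called was then 9.86%, 8.77%, 14.0% and 27.4% in that order, against 20.5% with all arrays. The S phase count was 24 if TNE replicate 2 was left out. The part of S phase content in the histone levels was not tested.

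**Figure D4:**
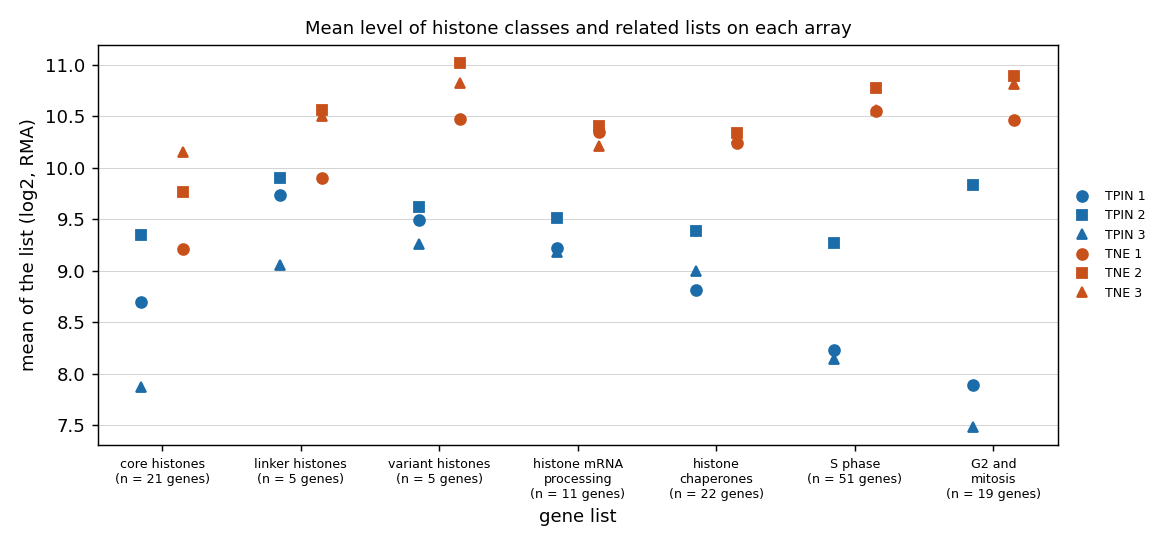
Mean log2 RMA level (vertical axis) of each histone class and of related gene lists on each of the 6 arrays, with the number of genes under each list. For core histones TPIN replicate 2 (9.34) lies above TNE replicate 1 (9.21), whereas for S phase all TNE arrays (10.55 to 10.77) lie above all TPIN arrays (8.15 to 9.26).

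Genes that make and mature histone mRNA rose for 6 of 11 measured genes (14 listed, background 10.3%) and fell for none. Slbp, which encodes the stem-loop binding protein, had 8.81, 9.01 and 9.36 in TPIN and 11.06, 11.06 and 10.71 in TNE, a 3.69-fold rise (limma adjusted p = 0.00483). Srrt, a cap-complex partner needed for histone mRNA in dividing cells, rose 2.90-fold (limma adjusted p = 0.00802). Casp8ap2, which encodes the processing factor FLASH, rose 2.90-fold (limma adjusted p = 0.00984), and the cleavage factor gene Cstf2 rose 2.43-fold. Eri1, an exonuclease that trims and degrades histone mRNA, rose 2.75-fold. Slbp, Srrt and Casp8ap2 passed with any 1 array left out. Leaving out TNE replicate 2 left 3 genes past the threshold and leaving out TPIN replicate 1 left 4. These fits called 8.77% and 9.86% of all genes.

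Histone chaperones and carriers rose for 11 of 22 measured genes (36 listed, background 10.3%) and fell for none. Chaf1a, the large subunit of the assembly factor that loads H3 and H4 onto new DNA, had 7.91, 8.39 and 8.06 in TPIN and 10.24, 10.43 and 9.97 in TNE (4.27-fold, limma adjusted p = 0.00337). Nasp, which keeps a soluble store of H3 and H4, rose 7.09-fold, and Dnajc9, a co-chaperone of H3 and H4, rose 5.71-fold. Anp32e, which removes H2A.Z from chromatin, rose 4.42-fold, from 9.57, 9.11 and 9.73 in TPIN to 11.27, 11.83 and 11.76 in TNE (limma adjusted p = 0.00403). Mms22l, which acts with the histone reader TONSL at stalled forks, rose 7.29-fold. All 5 passed with any 1 array left out. The list's count fell to 6 if TNE replicate 2 was left out and to 7 for TPIN replicate 1. Those fits called 8.77% and 9.86% of all genes.

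Cenpa, the centromeric variant of H3, lacks a histone symbol and was therefore counted in a list of its own with its loading factors. It rose 5.87-fold (limma adjusted p = 0.0121), and the loading factors Mis18a and Oip5 rose 5.97-fold and 4.68-fold. The last of these lost its call without any 1 of 4 arrays. Of 7 measured high mobility group genes (9 listed) 3 rose (background 10.3%) and none fell. Hmgb2, an abundant DNA-bending protein of dividing cells, rose 9.29-fold, Hmgn2, which binds nucleosomes, 4.29-fold, and Hmgb3 7.09-fold. Hmga2 had 10.93, 11.63 and 10.30 in TPIN and 10.75, 9.20 and 8.10 in TNE and did not pass (limma adjusted p = 0.115).

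Promoter windows of 300 bases, 250 before the start and 50 after it, were found for 26 of the 31 genes, and the shares of windows with each motif on either strand were set beside those of all 32851 windows. CCAAT was in 21 of the 26 histone windows (80.8%, against 37.4% of all windows). TATAAA was in 13 (50% against 13.6%), of which 10 were core and 3 linker genes. Other spellings of the TATA box were not searched. The octamer ATTTGCAT was in 8 (30.8% against 1.74%), 5 of them among the 7 H2B windows. AAACACA was in 7 (26.9% against 7.18%), among them H1f2, H1f3 and H1f5. The E2F-like letters were in none of the 26, and in 0.813% of all windows. Windows of H2ac1 and H2bc1 overlap and share letters. CCAAT was in the windows of H1f1 and H1f5, which rose, and of H1f2, which fell, and the octamer was in the windows of H2bc18, which rose, and of H2bc8, which did not pass.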

How the data were processed

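Expression was measured on 6 one-colour arrays, and the deposited values are on a log2 scale. The submitters' processing notes name RMA, a method that subtracts background, gives arrays a common distribution and narrows differences near background. The table has 10361 rows, part of the array. How they were selected and the genome build are not given in sources used here. No detection calls come with it, so a low value is not an absence, and the number of arrays limits the precision. Of the rows, 9496 had 1 gene symbol, 374 several and 491 none. The row of highest mean was kept for 6 genes with several rows.

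Groups came from the titles, and replicate numbers follow accession order and pair nothing. limma 3.58.1 in R 4.3.3 compared TNE with TPIN on the log2 values, with Benjamini-Hochberg adjustment over 9490 genes, and was tested on simulated data. In 10 simulations with 200 changed genes, it recovered 6.6% of those changed by 1 on the log2 scale. The share was 59% at 2 and 80.6% at 3, and 6.01% of calls were false. The data gave 1941 calls, against 200 genes changed in each simulation. The adjusted threshold was thus less strict in the data, and these shares need not hold there. A gene that did not pass is still not shown to be unchanged. Rows of several symbols came from the same model fitted on all rows. Classes were set by symbol. The members, gene lists and the rule for named genes (histone genes past the threshold, the 3 of smallest p and 2 of highest mean in each class, and the 5 of smallest p of each list) were chosen with earlier results of these data known. H2bc4 and other histone genes outside the rule were named to account for all 31. Alternatives were low-value filters, normalizations, moderation, array weights and leaving out each array. A planned comparison of histone protein sequences was not run.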

Additional observations from a re-analysis of the deposited data

How the results depend on the processing

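The count of 14 histone genes past the threshold was 12 to 17 under the alternatives that kept all arrays: 12 with dim genes left out (8 histone genes were not tested then), 12 with trend and robust moderation, 13 with array medians subtracted or all rows fitted, 14 with quantile normalization again or the mean of a gene's rows, and 17 with array weights, which called 4267 of all genes in place of 1941. Leaving out 1 array gave 4 to 13 histone genes, 0 to 7 core genes, 1 to 3 variants, 3 to 6 genes of histone mRNA processing, 6 to 13 chaperones, 24 to 42 S phase genes and 4 to 19 genes of G2 and mitosis. Over all genes these fits called 8.77% to 27.4%. The linker count was 3 under every alternative with all arrays and 2 or 3 with 1 array left out. With array weights 5 high mobility group genes passed in place of 3. Only H1f1, H1f5 and H2az1 of the 14 passed without any 1 array. Signs turned in uncalled genes alone: H1f10 was at -0.0462 without TPIN replicate 3 (range with 1 array left out -0.0462 to 0.568), and H3c15 at 0.00133 without TNE replicate 3 and 0.123 without TPIN replicate 2 (range -0.790 to 0.123). Fewer samples enter each of these fits, and any further cause was not tested. Counting H2aw with the core genes or leaving out H2bu1-ps, both chosen after seeing the data, gave 9 and 7 core genes. No paired analysis was possible because the labels give no replicate numbers shared by the groups.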
